A study of Mus musculus with 6 samples.

Results

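RNA levels of 37 genes of base excision, nucleotide excision and mismatch repair were compared between WT and hnRNPL-deficient B cells. The genes were taken by symbol from a deposited table of 55421 genes, in which all 37 were found, 17 of base excision, 5 of mismatch and 15 of nucleotide excision repair. RNA-seq had been done on activated splenic B cells from 3 mice of each genotype, 1 library per mouse. Control mice carried *CD21-cre* alone (called WT here), and hnRNPL-deficient mice carried *CD21-cre* with *Hnrnpl* F/F, a conditional allele that Cre recombinase deletes. By the study's methods both genotypes also carried the *Rosa mT/mG* reporter, which turns on GFP where Cre has been active, and mice were male and female and older than 6 weeks. Purified B cells were cultured with the bacterial lipid LPS (5 μg/ml) and the cytokine IL-4 (5 ng/ml), and GFP+ cells were sorted after 24 h. Cre from *CD21-cre* acts mainly in mature B cells. All cells analysed were therefore cells in which Cre had acted at some point, in both genotypes. hnRNPL is an RNA-binding protein best known as a regulator of alternative splicing, and the table gives 1 value per gene, with no separation of isoforms.

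Excision repair removes damaged DNA and copies the intact strand. In base excision repair a glycosylase cuts out a single altered base, the DNA backbone is opened at the site, and a polymerase and a ligase fill and seal the gap. In nucleotide excision repair distorting lesions are recognised, the helix is opened by TFIIH, and a short stretch is cut out on both sides. Mismatch repair uses MutS dimers to bind mispaired bases and MutL dimers to direct their removal. Activated B cells have a particular need of base excision and mismatch repair, because the deaminase AID turns cytosine into uracil in their antibody genes. The resulting uracil and mismatch are handled by glycosylases and by mismatch repair during class switching and somatic hypermutation.

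Libraries held 40395186 (hnRNPL-deficient library 3) to 75180749 (WT library 3) reads on genes, and 24009 to 26283 genes had at least 1 read. Values are normalized counts, that is, reads divided by a size factor per library. *Hnrnpl* itself fell from 24371, 25580 and 24174 normalized counts in WT to 2178, 1519 and 1297, which is 6.74% of the WT mean (limma adjusted p = 2.23e-05). B cell markers (7 genes) were present in every library, with sums of 277632 to 355972 in WT and 271886 to 322100 without hnRNPL. The 6 T cell markers summed to 898 to 1013 in WT and 621 to 858 without hnRNPL, nearly all of it *Lck*, while *Cd3e*, *Cd3g* and *Cd4* were at 0 to 2.32. NK cell and erythroid markers summed to at most 16.4 in any library. The 5 myeloid markers summed to 259.96 to 331 in WT and 1239 to 1382 without hnRNPL. This sum was nearly all *Adgre1*, which was called higher (means of 277.5 and 1308, log2 fold change 2.24, limma adjusted p = 0.000139). *Lyz2* and *Cd14* were at 0 in every library but hnRNPL-deficient library 2. *Itgam* and *Csf1r* were at 18.6 or less in every library. The 3 plasma cell markers gave 1639.8 to 1838 and 1389 to 1907, most of it *Prdm1*, while *Jchain*, the antibody joining chain, was called lower (means of 84.1 and 14.7, log2 fold change -2.31, limma adjusted p = 0.0509). The 12 cell cycle genes summed to 82801 to 116123 in WT and 51444 to 84814 without hnRNPL. WT library 1 was the highest and hnRNPL-deficient library 3 the lowest. All 12 had a lower mean without hnRNPL, as did 9304 of the 17640 genes tested below. Of the 12, 1 passed an adjusted p of 0.1, *Mcm5* (8.33%, where 7.97% of all genes tested fell by it). In bulk samples, fewer cells of one kind and less RNA per cell cannot be told apart.

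Across all genes, log2(normalized count + 1) was tested with limma, and a gene was called when its Benjamini-Hochberg adjusted p was under 0.1 and it changed by at least 1.5-fold. Genes averaging 10 or more normalized counts entered the test, 17640 in all. Of these, 1284 (7.28%) were called higher and 719 (4.08%) lower without hnRNPL, 11.4% together, with 850 higher when WT library 3 was left out. By the adjusted p alone 10.0% were higher and 7.97% lower, 18.0% together. Of the 37 repair genes, 36 reached the mean of 10 and were tested, and *Neil2* did not. Only *Mbd4* was called, as higher, which is 2.78% of the 36. By the adjusted p alone, *Mbd4*, *Ercc5* and *Smug1* rose and *Msh6*, *Tdg* and *Pms1* fell, 16.7% of the 36 and close to the 18.0% of all genes. These counts changed when single libraries were left out, and so did those of all genes. By the adjusted p, 1 to 3 repair genes were higher with each library left out in turn. Lower were 0 (without WT library 2) to 2. Of all genes tested, 941 to 1508 were higher and 676 to 1066 lower by it, compared with 1766 and 1406 in the main fit. No repair gene was called without WT library 2 or 3. Of all genes, 1014 and 850 were then called higher and 513 and 483 lower. Without hnRNPL-deficient library 1, *Smug1* (higher) and *Msh6* (lower) were called and *Mbd4* was not, where 1106 and 695 of all genes were called.

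The median log2 fold change was 0.05 for the 36 genes and -0.03 for all genes tested. For 20 of the 36 (55.6%) the 95% interval of the fold change lay wholly within 1.5-fold in either direction, compared with 34.4% of all genes tested. The sets were not matched on expression level. The 3 hnRNPL-deficient libraries lay all above the 3 WT libraries for 7 repair genes and all below for 7, 38.9% of the 36, where 17.7% of all genes tested lay above and 16.3% below, 34.0% together. Those above were *Neil3*, *Smug1*, *Mbd4*, *Polb*, *Ercc6*, *Ercc4* and *Ercc5*, and those below *Mutyh*, *Tdg*, *Msh6*, *Pms1*, *Pms2*, *Rad23b* and *Gtf2h1*. Without hnRNPL-deficient library 3, 12 repair genes (33.3%) lay all above, where 23.0% of all genes tested did.

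**Figure D1:**
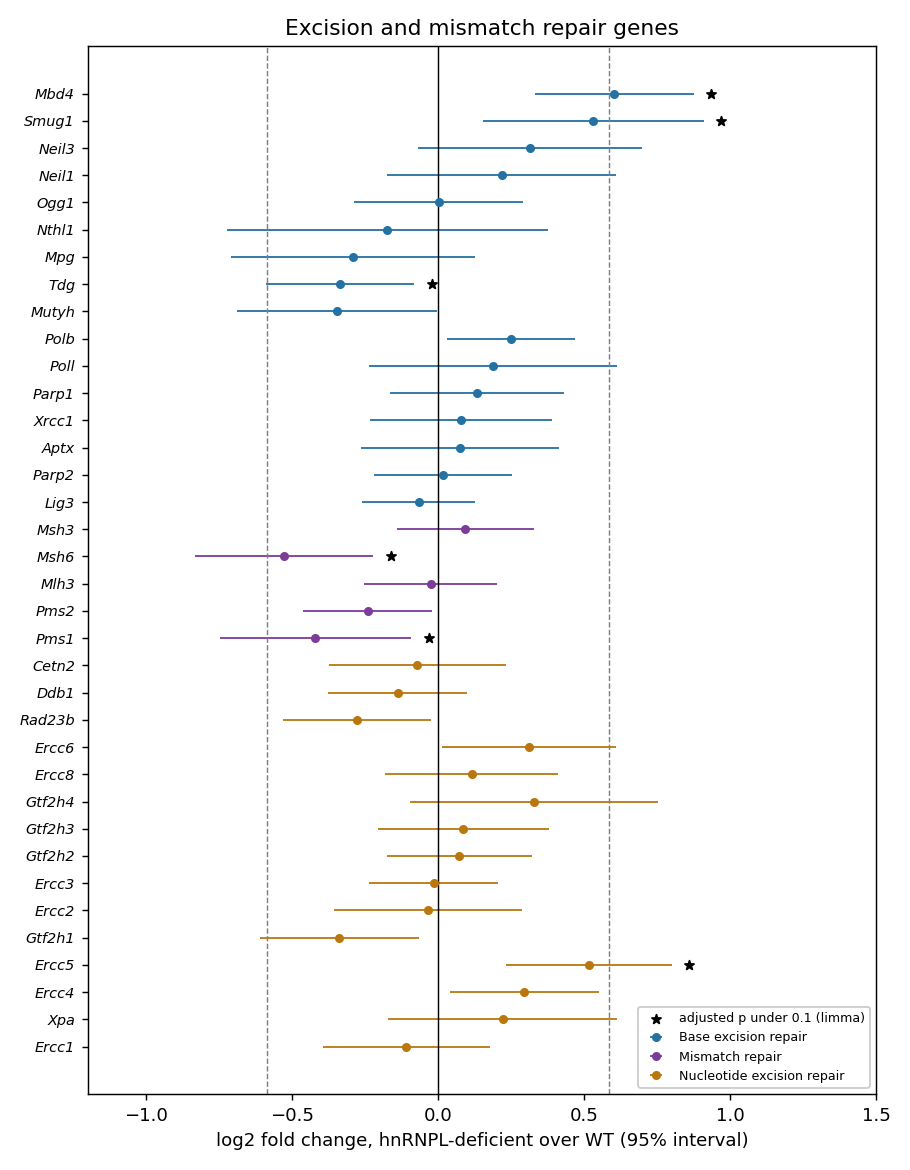
log2 fold change of the 36 tested repair genes, hnRNPL-deficient over WT, with the 95% interval from limma (3 mice per group). Genes are ordered by step, colours give the pathway, dashed lines mark 1.5-fold, and stars mark the 6 genes with an adjusted p under 0.1, which run from -0.53 (*Msh6*) to 0.60 (*Mbd4*).

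The spread of levels was wide. Per length, as reads per kb of exon per 1000000 reads on genes (RPKM), the most abundant repair transcripts in WT cells were *Rad23b* (64.5 ± 5.85, SD, n = 3 mice) and *Ddb1* (63.2 ± 0.893), both of which act in damage recognition, and these did not differ beyond their spread. Next came *Parp1*, the main sensor of DNA strand breaks, at 43.9 ± 4.56 RPKM, followed by the TFIIH subunit *Gtf2h1* at 34.8 ± 3.91 and *Msh6* at 30.1 ± 0.998, whose ranges of mean ± SD overlap. At the other end *Nthl1*, *Neil3* and *Smug1*, all glycosylases, had 0.896, 0.685 and 0.682 RPKM. *Neil2*, a glycosylase for oxidised bases, had 1.16, 0 and 1.53 normalized counts in WT and 0.902, 0 and 5.48 without hnRNPL, too few for a comparison.

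**Figure D2:**
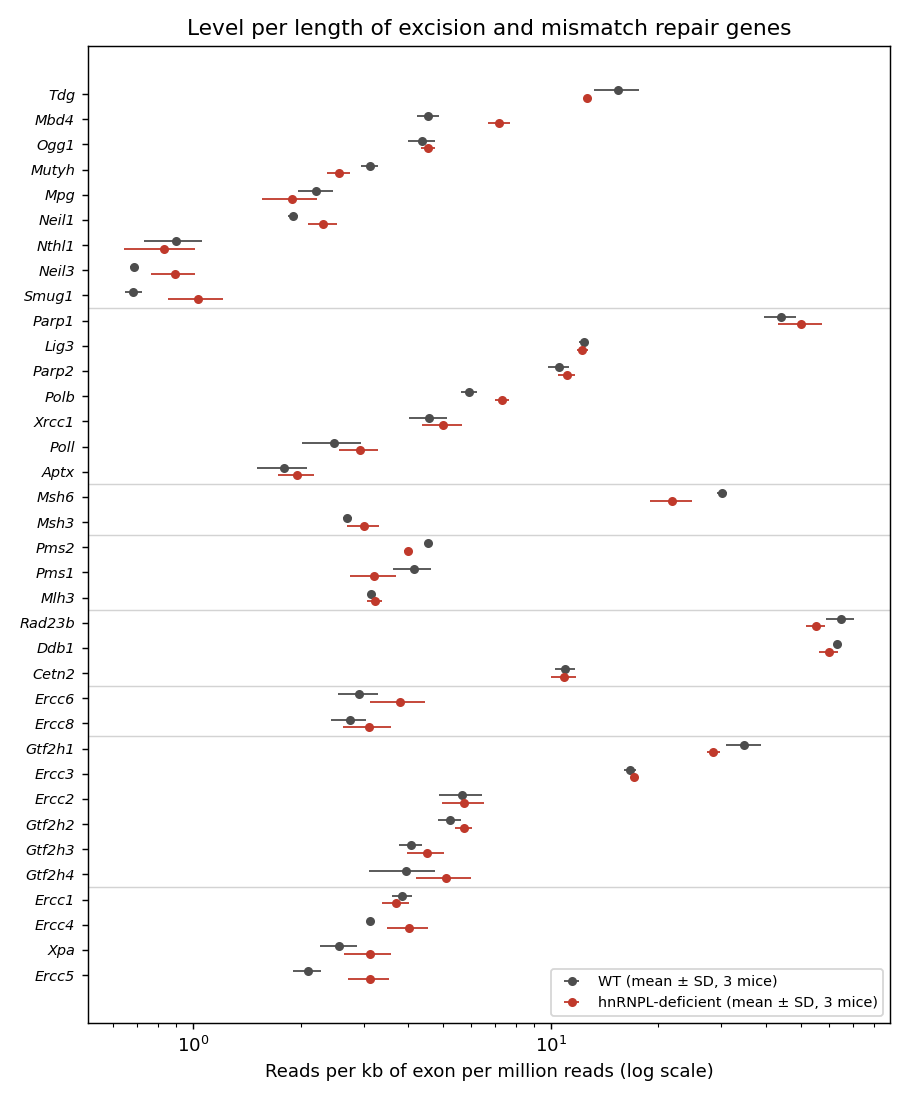
Level per length (RPKM, log scale) of the 36 tested repair genes as mean ± SD of 3 mice, WT in grey and hnRNPL-deficient in red, with lines between the steps of the pathways. Damage recognition genes reach 64.5 in WT, whereas *Smug1*, *Neil3* and *Nthl1* lie below 1 in WT.

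Among the glycosylases, *Mbd4* and *Smug1* rose and *Tdg* fell. *Mbd4*, which removes thymine or uracil paired with guanine at CpG sites, had 1607, 1331 and 1377 normalized counts in WT libraries 1 to 3 and 2388, 2033 and 2130 in libraries 1 to 3 of the hnRNPL-deficient mice. All hnRNPL-deficient libraries were above all WT libraries. Its log2 fold change was 0.60 (standard error 0.119, limma adjusted p = 0.0160), or 51.9% more on average. The adjusted p stayed at or below 0.0732 with each library left out, but the change dropped under 1.5-fold (0.58 on the log2 scale) when WT library 2 (0.55), WT library 3 (0.57) or library 1 of the hnRNPL-deficient mice (0.54) was left out. The gene lies on chromosome 6, 115840697-115853371, minus strand (GRCm38).

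*Smug1* encodes a second uracil glycosylase, known as a backup of UNG. It had 245, 254 and 252 normalized counts in WT and 309, 371 and 414 without hnRNPL, so WT libraries were nearly alike and the others spread further, above them. Its log2 fold change was 0.53 (standard error 0.166, limma adjusted p = 0.0766). The call by adjusted p was held only without hnRNPL-deficient library 1 (0.0798), and without any 1 of the other 5 libraries it lay between 0.137 and 0.192.

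*Tdg* encodes thymine DNA glycosylase, which excises thymine from mispairs with guanine and the oxidised forms of methylcytosine. It went the other way, with 4345, 5563 and 4926 normalized counts in WT and 3962, 3992 and 3743 without hnRNPL. The hnRNPL-deficient libraries were close to each other and below every WT library, while the WT libraries differed more among themselves. The log2 fold change was -0.34 (standard error 0.111, limma adjusted p = 0.0908). It was past the threshold without WT library 1 (0.0434) and not without any 1 of the other 5 libraries (0.162 to 0.269). All 3 of these enzymes can act on uracil opposite guanine. *Smug1* is on chromosome 15, 103153290-103167092, and *Tdg* on chromosome 10, 82629828-82650799.

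The other 6 tested glycosylases had log2 fold changes from -0.35 (*Mutyh*) to 0.31 (*Neil3*) and adjusted p from 0.18 to 0.993 (limma). *Ogg1*, which removes oxidised guanine, had nearly equal means, at 571.03 ± 37.2 and 571.4 ± 25.6 normalized counts (SD, n = 3 mice each). *Mutyh*, which removes adenine paired with that oxidised guanine, had 488 ± 41.7 and 385 ± 40.6, and its groups did not overlap. *Neil3* likewise had groups that did not overlap, at 228 ± 14.7 and 284 ± 32.5. The means of *Neil1* were 213 and 249, of *Mpg*, which excises alkylated bases, 496 and 410.1, and of *Nthl1* 145 and 129.6, with overlapping groups. Of *Mpg* exons, 35.7% are shared with *Nprl3* on the opposite strand, and reads were counted by strand. Only *Ogg1* of the 9 tested glycosylases had an interval within 1.5-fold.

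**Figure D3:**
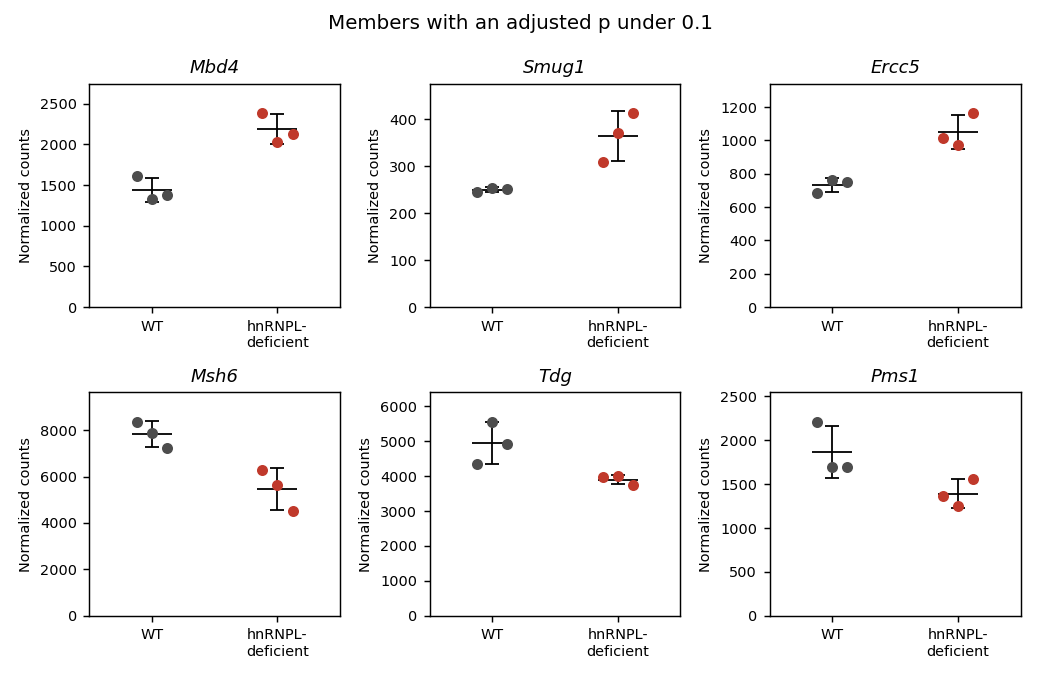
Normalized counts of the 6 repair genes with an adjusted p under 0.1 (limma). Points are the 3 libraries per genotype, with the mean and SD in black and axes from 0. In each panel the groups are apart, most narrowly for *Pms1* and *Tdg*.

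The later steps of base excision repair showed no gene past the threshold. *Parp1* had 12792, 15012 and 13829 normalized counts in WT and 15211, 17782 and 12927 without hnRNPL, groups that overlapped, with a log2 fold change of 0.13 (interval -0.17 to 0.43). *Aptx*, which removes adenylate from stalled ligation ends and was the least abundant of this step per length, had 538, 668 and 685 and then 591, 707 and 689. *Polb*, the main gap-filling polymerase, was the one gene of this step whose groups did not overlap. Its WT values were 1368, 1412 and 1402 and its hnRNPL-deficient values 1635, 1661 and 1676, a log2 fold change of 0.25 (standard error 0.0959, limma adjusted p = 0.135). *Xrcc1*, the scaffold of this step, its partner *Lig3*, *Parp2* and *Poll* had log2 fold changes between -0.07 and 0.19. For 6 of the 7 genes the interval lay within 1.5-fold, the exception being *Poll* (up to 0.61 on the log2 scale).

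In mismatch repair, 4 of the 5 genes had a lower mean without hnRNPL, as did 9304 of the 17640 genes tested. Of these 4, *Msh6* and *Pms1* passed the adjusted p, where 7.97% of all genes tested fell by it. The fourth, *Mlh3*, had a log2 fold change of -0.02, which turned to 0.0304 with libraries scaled to equal totals, 0.0310 with edgeR and 0.0090 with DESeq2. *Msh6* (chromosome 17, 87975062-87990892) encodes a mismatch-binding MutS subunit for single mispairs, U:G among them. It had 8374, 7868 and 7247 normalized counts in WT and 6293, 5627 and 4503 without hnRNPL, all lower than in WT, with hnRNPL-deficient library 3 the lowest. The log2 fold change was -0.53 (standard error 0.134, limma adjusted p = 0.0390), a mean 30.1% below WT. Without WT library 2 the adjusted p was 0.109, and without hnRNPL-deficient library 1 the change reached -0.63, past 1.5-fold. *Msh3*, whose product is a MutS subunit for larger loops, had 1851, 1871 and 1728 normalized counts in WT and 1815, 1929 and 2077 without hnRNPL, with overlapping groups and a log2 fold change of 0.09 (interval -0.14 to 0.33). Like *Msh6*, the summed cell cycle genes were highest in WT library 1 and lowest in hnRNPL-deficient library 3, but their sum in hnRNPL-deficient library 1 (84814) lay above those of WT libraries 2 (82801) and 3 (82963). Their part in the *Msh6* result was not tested.

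The promoter of *Msh6* is shown because it fell the most of the repair genes, and that of *Mbd4* because it was the only gene called. The sequences are the RefSeq strand of the gene on GRCm38.p6, from 250 bases before the start site, with matches to the E2F letters TTTGGCGC, TTTCCCGC, TTTCGCGC or TTTGCCGC and to CCAAT, on either strand, in capitals. *Msh6* is at chr17:87974800-87975074, plus strand, and ends 25 bases past the start, and *Mbd4* is at chr6:115853342-115853591, minus strand.
Msh6: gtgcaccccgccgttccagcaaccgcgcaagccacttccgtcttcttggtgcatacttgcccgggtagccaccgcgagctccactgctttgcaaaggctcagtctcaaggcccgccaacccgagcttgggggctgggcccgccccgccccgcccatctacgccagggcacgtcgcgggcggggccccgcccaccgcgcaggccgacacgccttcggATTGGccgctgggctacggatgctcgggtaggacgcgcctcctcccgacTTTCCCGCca
Mbd4: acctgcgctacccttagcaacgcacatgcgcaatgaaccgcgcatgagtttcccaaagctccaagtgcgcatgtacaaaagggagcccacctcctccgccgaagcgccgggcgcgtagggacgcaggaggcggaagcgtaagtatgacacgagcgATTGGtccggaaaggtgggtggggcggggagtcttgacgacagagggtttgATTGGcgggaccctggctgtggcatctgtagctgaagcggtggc
*Msh6* held TTTCCCGC 15 bases past its start and 1 CCAAT in reverse (ATTGG). *Mbd4* held CCAAT in reverse at -95 and -44 and no E2F letters. These are matches of letters, and no binding was measured.

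Among the MutL genes, whose products act after mismatch binding, *Pms1* (chromosome 1, 53189187-53297018) fell. Its values were 2213, 1699.8 and 1699 normalized counts in WT and 1368, 1246 and 1564 without hnRNPL, a change of -0.42 on the log2 scale (standard error 0.144). WT library 1 stood well above the other WT libraries. The limma adjusted p of 0.0997 was just under the threshold, was 0.0875 without hnRNPL-deficient library 3, and lay between 0.143 and 0.246 without any 1 of the other 5 libraries. *Pms2*, the MutL subunit with endonuclease activity, had 2309, 2204 and 2094 and then 1942, 1832 and 1813, groups that did not overlap, with a log2 fold change of -0.24 (limma adjusted p = 0.151). *Mlh3* had 1488, 1406 and 1383 in WT and 1408, 1367 and 1427 without hnRNPL, with a log2 fold change of -0.02 (interval -0.25 to 0.20).

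In nucleotide excision repair the recognition genes were abundant and their intervals all lay within 1.5-fold. *Rad23b*, which stabilises the lesion sensor XPC, had 25407, 20594 and 20473 normalized counts in WT and 18454, 17397 and 18676 without hnRNPL. The groups did not overlap, WT library 1 was the highest, and the difference was -0.28 on the log2 scale (standard error 0.111, limma adjusted p = 0.147). *Cetn2*, another XPC partner, had 1152, 1135 and 963 and then 1158, 1006 and 933, with overlapping groups. *Ddb1*, an adaptor of the CUL4 ubiquitin ligase that reads ultraviolet damage, had a log2 fold change of -0.14 (interval -0.38 to 0.10). Both genes of the transcription-coupled branch, which responds to stalled RNA polymerase, had higher means without hnRNPL, as did 8336 of the 17640 genes tested. *Ercc6* had 1995, 2398 and 2314 in WT and 2446, 2703 and 3210.1 without hnRNPL (log2 fold change 0.31, limma adjusted p = 0.163), and *Ercc8* had 1154, 1384 and 1224 and then 1215, 1331 and 1535 (0.12, adjusted p = 0.605).

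TFIIH, the complex that opens the helix in both transcription and repair, had no subunit past the threshold. *Gtf2h1*, its most abundant subunit transcript here, had 7296, 5746 and 5612 normalized counts in WT and 5127, 4702 and 4830.2 without hnRNPL, groups that did not overlap, and its log2 fold change was -0.34 (standard error 0.119, limma adjusted p = 0.109). *Gtf2h4*, the least abundant, had 619.7, 907 and 799 in WT and 918, 1176 and 822 without hnRNPL, a log2 fold change of 0.33 with overlapping groups (limma adjusted p = 0.298). The helicases *Ercc2* and *Ercc3*, and *Gtf2h2* and *Gtf2h3*, had log2 fold changes between -0.03 and 0.09, all with intervals within 1.5-fold.

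Of the genes that verify and cut, *Ercc5* rose. It encodes XPG, the nuclease that cuts on the 3' side of a lesion, and lies on chromosome 1, 44147744-44181260. It had 685, 763 and 752 normalized counts in WT and 1012, 974 and 1166 without hnRNPL, all above WT, and its log2 fold change was 0.52 (standard error 0.124, limma adjusted p = 0.0333), a mean 43.3% above WT. Without WT library 3 the adjusted p was 0.102. *Ercc4*, the nuclease that cuts on the 5' side, had 1257 ± 35.3 normalized counts in WT and 1547 ± 149.8 without hnRNPL (SD, n = 3 mice each), with groups that did not overlap and an adjusted p of 0.132. Its obligate partner *Ercc1* had 695, 759 and 689 in WT and 615, 716 and 658 without hnRNPL, with a log2 fold change of -0.11. *Xpa*, which verifies the lesion, had means of 289.9 and 339.6 with overlapping groups.

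The balance between partners was examined within each library as the ratio of normalized counts, each plus 1, of a pair of genes. Apart from the added 1, the ratio does not depend on the size factor. Of 17 pairs that share a complex or a step, 9 had ratios that did not overlap between the genotypes. In 8 of the 9 at least 1 of the genes already had groups that did not overlap by itself, and no share over other pairs of genes was computed, so the count is a description only. With 3 mice against 3 the exact two-sided permutation test cannot give a p below 0.1, which all 9 reached, and 0.189 after Benjamini-Hochberg adjustment over the 17 pairs. No pair therefore passed the test. The widest gap was in *Tdg* over *Mbd4*, with ratios of 2.702, 4.18 and 3.58 in WT and 1.66, 1.96 and 1.76 without hnRNPL, a log2 difference of -0.94. *Tdg* over *Smug1* had 17.7, 21.8 and 19.5 in WT and 12.8, 10.7 and 9.02 without hnRNPL, a log2 difference of -0.87. *Msh3* over *Msh6* was 0.221, 0.238 and 0.238 in WT and 0.289, 0.343 and 0.461 without hnRNPL, a log2 difference of 0.62. These 3 pairs include genes that were past the threshold singly, in opposite directions or on 1 side.

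The other 6 ratios whose groups did not overlap differed by less, none past the test, and none of their genes had passed alone. The ratio of *Gtf2h1* to *Gtf2h2* differed by -0.41, of *Ogg1* to *Mutyh* by 0.35, of *Gtf2h3* to *Gtf2h4* by -0.24, of *Pms2* to *Mlh3* by -0.22 and of *Ercc6* to *Ercc8* by 0.20, on the log2 scale. *Ercc1* and *Ercc4*, which form 1 nuclease, gave ratios of 0.538, 0.605 and 0.563 in WT and 0.433, 0.476 and 0.384 without hnRNPL, a log2 difference of -0.40. The other 8 pairs overlapped, *Parp1* with *Parp2* (0.11), *Xrcc1* with *Lig3* (0.15) and *Ercc2* with *Ercc3* (-0.02) among them.

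**Figure D4:**
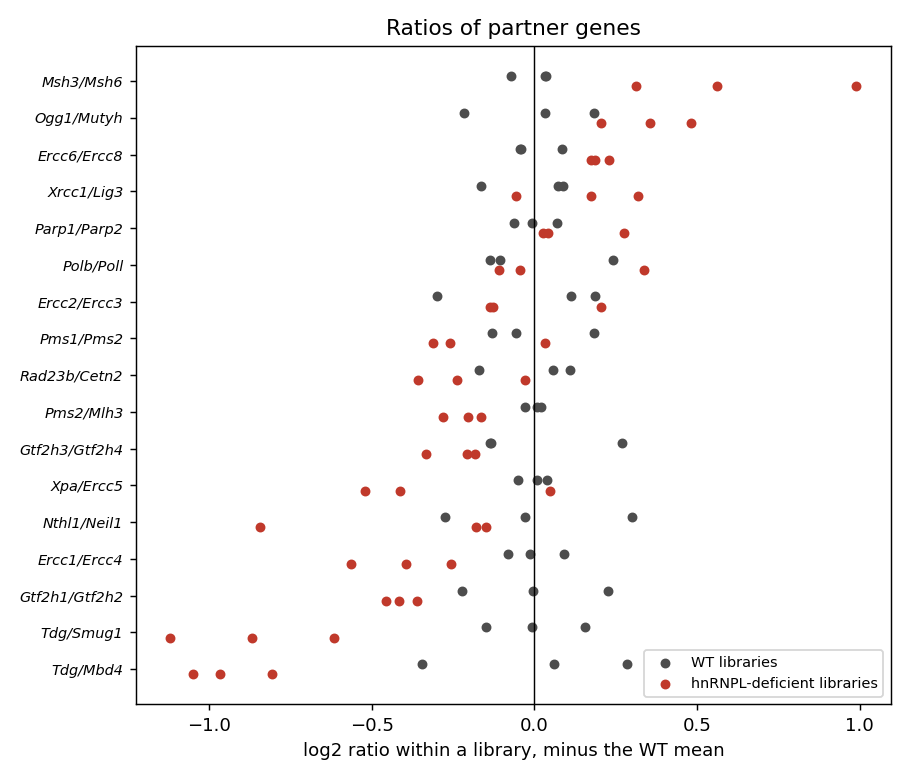
log2 ratio of normalized counts, each plus 1, of 17 partner pairs in each library, minus the mean of the WT libraries. WT is in grey and hnRNPL-deficient in red. *Tdg* over *Mbd4* lies lowest (-0.94 on average) and *Msh3* over *Msh6* highest (0.62), and 9 pairs have groups that do not overlap.

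The other genes of these pathways were a list of 43 that includes the replication factors shared with repair synthesis. They had a lower mean without hnRNPL in 32 cases, where 9304 of the 17640 genes tested did. Of the 43, 1 rose and 9 fell by the adjusted p, 23.3% together against 18.0% of all genes, of which 10.0% rose and 7.97% fell. None was called higher and 4 were called lower (9.30%), where 7.28% and 4.08% of all genes were. The median log2 fold change was -0.25. The 4 called were *Ung*, the main uracil glycosylase of activated B cells (4564 ± 157 to 2648 ± 322 normalized counts, log2 fold change -0.79, limma adjusted p = 0.00424), *Exo1*, the exonuclease of mismatch repair (-0.82, adjusted p = 0.0225), *Rfc2*, a subunit of the clamp loader (-1.01, adjusted p = 0.00248), and *Pole3*, a subunit of DNA polymerase epsilon (-0.62, adjusted p = 0.0220). The change of *Pole3* dropped under 1.5-fold without WT library 1 (-0.56) or hnRNPL-deficient library 3 (-0.50), and with equal totals (-0.57) or quantile normalization (-0.57), and the calls of the other 3 held with each library left out. The 12 cell cycle genes also had lower means, and their part in these values was not tested. Uracil glycosylases thus differed in the sign of their mean change, with *Ung* and *Tdg* lower and *Smug1* and *Mbd4* higher. For *Tdg* and for *Smug1* the limma adjusted p was under 0.1 in only 1 of the fits with a library left out. Per length *Smug1* had 0.682 RPKM in WT and 1.04 without hnRNPL.

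What the members share in sequence was described over RefSeq promoters (250 bases before to 50 after the start) on GRCm38.p6, found for 33 of the 37 genes and not for *Neil2*, *Polb*, *Poll* and *Ercc3*. E2F letters were in 3 of the 33 (*Msh3*, *Msh6* and *Nthl1*), 9.09%, compared with 2.60% of all 27025 genes in the table. Of the 17640 genes tested, 9785 were found there, and 4.84% of these held E2F letters. Shares of tested genes below are also of these 9785. CCAAT was in 21 (63.6%, against 41.1% of all genes and 43.6% of those tested), and the E-box CACGTG in 7 (21.2%, against 8.09% and 11.96%). The ETS letters CCGGAAGT were in 4 (12.1%, against 4.31% and 9.66%), the NRF1 element in 1 (3.03%, against 1.07% and 2.47%) and TTTGAA, the core of the CHR element, in 1 (3.03%, against 20.2% and 14.9%). Both strands were searched. The 3 genes with E2F letters had log2 fold changes of 0.09, -0.53 and -0.17.

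*Hnrnpl* is on chromosome 7, and 4 repair genes lie within 20 Mb of it, *Xrcc1* at 4.24 Mb, *Ercc2* at 9.41 Mb, *Ercc1* at 9.45 Mb and *Gtf2h1* at 17.97 Mb. None of the 4 passed the adjusted p of 0.1, so none was called. Of the 488 tested genes there, *Hnrnpl* among them, 15.2% were called, compared with 11.4% of all genes tested.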

How the data were processed

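RNA-seq of GFP+ splenic B cells sorted 24 h after activation was analysed for 3 WT and 3 hnRNPL-deficient mice, grouped by the submitters' labels. Per the labels and the study's methods, the authors trimmed reads with fastp 0.23.1, aligned them with STAR 2.7.9a to mm10, counted them by strand with featureCounts on GENCODE genes and divided counts by DESeq2 1.38.2 size factors. The deposited values are thus normalized counts (a signal, not always whole). The table also holds log2 fold changes, a test score and p-values computed by the authors with DESeq2, which were not used. Depth ranged from 40395186 to 75180749 reads on genes. In bulk RNA-seq this limits mainly genes with few reads, such as *Neil2*.

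Here, log2(normalized count + 1) of 17640 genes averaging 10 or more was tested with limma 3.58.1 in R 4.3.3 (two-sided, mean-variance trend, Benjamini-Hochberg over all genes). A pseudocount of 1 understates changes of low genes. Partner ratios were tested by exact permutation in Python 3.11.15. The mice are separate animals. Exon lengths and coordinates came from GENCODE vM21 on GRCm38, an earlier release than the authors', and promoters from RefSeq.

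The repair genes, the 43 further pathway genes, the marker lists and the pairs were chosen with earlier results of these data known. Library values are printed for genes with an adjusted p under 0.1 and for the most and least abundant gene per length of each step. *Polb* was added after its values were seen, as were the means of other genes. Of the 43, the called ones are named. Some genes of these lists are not reported here by name. Alternatives were pseudocounts of 0.5 and 5, no filter or a mean of 50, equal totals, quantile normalization, no trend, a replicate block, each replicate left out, thresholds of 0.05 and 2-fold, and edgeR 4.0.16 and DESeq2 1.42.0 on whole reads. In every library 100% of values were whole multiples (within 0.01) of 1 read. In hnRNPL-deficient library 2 that step is 1.01 normalized counts, too near 1 for an automatic check of whole reads to accept, so the count tests left it out and used 5 libraries.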

Additional observations from a re-analysis of the deposited data

How the results depend on the processing

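*Mbd4* passed the adjusted p of 0.1 under every alternative run (0.000627 to 0.0732), and *Ercc5* and *Msh6* under all but 1 and 2 of them. *Smug1*, *Tdg* and *Pms1* did not hold under several. Repair genes called higher numbered 2 with equal totals, edgeR and DESeq2 (*Mbd4* with *Smug1* in the first and *Ercc5* in the others), 0 at an adjusted p under 0.05 and 2-fold, where 610 and 216 of all genes were called, and 0 to 1 with a replicate left out. Of all genes tested, 1421 of 17649 were called higher with equal totals, 1136 of 17642 with edgeR and 1175 of 17642 with DESeq2. Called lower were 0 to 1 repair genes (*Msh6* without hnRNPL-deficient replicate 1, where 695 of the 17629 genes tested were). By adjusted p alone, 5 rose with equal totals, where 2114 of the 17649 genes tested did, and 1 to 3 with a replicate left out. Those that fell numbered 1 (*Msh6*) without a filter, with equal totals, quantile normalization, edgeR, DESeq2 or an adjusted p under 0.05. They numbered 0 without a trend, and 0 to 2 with a replicate left out. Of all genes tested, 1203 of 31449 fell without a filter, 1258 of 17649 with equal totals and 1415 of 17640 with quantile normalization. With edgeR 912 of 17642 fell and with DESeq2 1329 of 17642. At an adjusted p under 0.05, 826 of 17640 fell, and without a trend 1031 of 17640. With a replicate left out, 941 to 1508 of all genes rose and 676 to 1066 fell. Groups lay apart upward for 7 to 12 repair genes with a replicate left out (19.5% to 23.5% of all genes), and all genes called higher numbered 850 to 1124. The cause of these differences was not tested. The fits that leave one out and the count tests also held fewer libraries.

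With the replicate block 7 repair genes rose and 7 fell by adjusted p, where 2893 and 2918 of the 17640 genes tested did. With the 1.5-fold minimum as well, 1 repair gene was called, and 1755 and 1018 of all genes were called higher and lower. The replicate numbers are only names in the labels, so the main fit had no block. Deviations of same-numbered libraries correlated at 0.429, 0.320 and 0.0663. For each hnRNPL-deficient library this was its highest correlation with a WT library, the last only just above 0.0501 with WT library 1. Whether the numbers mark pairs was not tested. WT library 3 correlated better with hnRNPL-deficient library 2 (0.305) than with its own number.

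Of 576 fold changes of repair genes under alternatives, 506 kept sign and side of the threshold, 34 lost and 10 gained significance and 26 changed sign. Those were *Ogg1* (-0.0586 with quantile normalization, -0.0206 with DESeq2), *Lig3* (0.0258), *Ddb1* (0.0272) and *Ercc3* (0.0492) with quantile normalization, *Xrcc1* (-0.0073) and *Mlh3* (0.0090) with DESeq2, *Mlh3* (0.0304), *Ercc2* (0.0204) and *Ercc3* (0.0395) with equal totals, and *Mlh3* (0.0310) and *Ercc3* (0.0195) with edgeR. With a replicate left out the log2 fold change ran from -0.0376 to 0.0532 for *Ogg1*, from -0.0240 to 0.19 for *Xrcc1*, from -0.0206 to 0.0900 for *Parp2*, from -0.0356 to 0.15 for *Aptx*, from -0.0464 to 0.0065 for *Mlh3*, from -0.15 to 0.0385 for *Ercc2*, from -0.0478 to 0.0433 for *Ercc3* and from -0.0135 to 0.18 for *Gtf2h3*, and the ratio difference from -0.0760 to 0.18 for *Polb/Poll* and from -0.17 to 0.0739 for *Ercc2/Ercc3*.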

Other observations

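Several repair genes share a promoter region with a neighbour transcribed away from them, and 12 such head-to-head pairs, with starts within 1000 bases, had both genes tested. The sign of the log2 fold change was the same in 4 of the 12 pairs. The pairs described here were chosen after their values were seen. *Mbd4* and *Ift122*, a gene of ciliary transport whose start is 99 bases away, were both higher without hnRNPL. *Ift122* had 321, 315 and 301 normalized counts in WT and 411, 436 and 429 without hnRNPL (log2 fold change 0.44, limma adjusted p = 0.0745). The groups did not overlap for either gene.

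*Pms2* and *Aimp2*, a scaffold of tRNA synthetases 117 bases away, had log2 fold changes of -0.24 and -0.45 (adjusted p = 0.151 and 0.143). *Pms1*, which fell, and *Ormdl1*, a regulator of sphingolipid synthesis 77 bases away, had -0.42 and 0.15. Of the 12 neighbours, 3 passed the adjusted p of 0.1, all higher, as did 10.0% of all genes tested in that direction and 18.0% in either: *Ift122*, *Tsc2* beside *Nthl1* (0.40, adjusted p = 0.0203) and *Tkfc* beside *Ddb1* (0.70, adjusted p = 0.0482). *Nthl1* (-0.17) and *Ddb1* (-0.14) did not pass. *Tkfc* shares exon bases with *Ddb1* on the opposite strand.

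WT library 1 held the lowest of the 6 values for 13 of the tested repair genes and the highest for 9, and hnRNPL-deficient library 3 the lowest for 10 and the highest for 8. The median difference of the repair genes from the WT mean, on the log2 scale, was between -0.08 and 0.09 in every library.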
